A study of Homo sapiens with 12 samples.

Results

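The genes described here encode the subunits of the proteasome, in A673 cells, an Ewing sarcoma cell line that carries the EWS-FLI1 fusion. They were taken by symbol: every gene with a probe set annotated to a single symbol made of PSMA, PSMB, PSMC, PSMD or PSME and a number, which gave 40 genes of the 18404 measured this way. The 40 genes had 41 probe sets. PSMC6 had 2 of them and was represented by the brighter. PSMC5, PSMD7 and PSMD13, which are also regulatory particle genes, were not analysed here. RNA was hybridized to Affymetrix Gene ST arrays, 12 in all and 2 in each of 6 groups. The drug groups were untreated cells at time 0, cells given the solvent DMSO for 24 hours, and cells given actinomycin D at 5 nM or 50 nM for 24 hours. The knock-down groups were cells infected with a lentivirus that carries an shRNA against FLI1, or against lacZ as a control, and labelled 48 hours. Per the methods, virus was left on for 24 hours and was followed by puromycin selection for 48 hours, so both shRNA groups share infection and selection, which the untreated cells lack. Each knock-down used a single shRNA sequence in a single cell line. The methods and the series text describe duplicate treatments and duplicate knock-downs, without saying whether they were done on separate days, so p-values measure the spread of these duplicates.

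The proteasome degrades proteins tagged with ubiquitin. Its core particle is a barrel of stacked rings: the outer alpha rings (PSMA genes) form a gate, and the inner beta rings (PSMB genes) hold the proteolytic sites of PSMB5, PSMB6 and PSMB7. In cells exposed to interferon, PSMB8, PSMB9 and PSMB10 can take the place of these catalytic subunits, and peptides that result are loaded on MHC class I molecules. A regulatory particle caps the core. Its base holds the ring of ATPases (PSMC genes) that unfold substrates, and its lid holds the deubiquitinase PSMD14. The PSME genes encode alternative caps. Actinomycin D binds DNA and blocks transcription, and at low concentration is known mostly as a block of ribosomal RNA synthesis.

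The promoter bases of 4 genes are printed because these genes had the largest rises (PSME2 and PSMB10) and the largest falls (PSME4 and PSMD14) at 5 nM actinomycin D. Each run is the 250 bases before the RefSeq start of transcription in build GRCh38.p14, 5′ to 3′ on the strand of the gene. PSME2 is at chr14:24146611-24146860 on the minus strand, PSMB10 at chr16:67936851-67937100 on the minus strand, PSME4 at chr2:53970994-53971243 on the minus strand and PSMD14 at chr2:161308175-161308424 on the plus strand. Capitals mark matches on either strand to the 6 motifs searched, which are described with their counts later.
PSME2: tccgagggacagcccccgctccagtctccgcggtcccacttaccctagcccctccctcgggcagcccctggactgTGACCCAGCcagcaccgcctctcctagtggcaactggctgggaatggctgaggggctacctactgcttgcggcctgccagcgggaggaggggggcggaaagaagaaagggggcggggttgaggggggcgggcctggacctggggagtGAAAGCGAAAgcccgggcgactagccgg
PSMB10: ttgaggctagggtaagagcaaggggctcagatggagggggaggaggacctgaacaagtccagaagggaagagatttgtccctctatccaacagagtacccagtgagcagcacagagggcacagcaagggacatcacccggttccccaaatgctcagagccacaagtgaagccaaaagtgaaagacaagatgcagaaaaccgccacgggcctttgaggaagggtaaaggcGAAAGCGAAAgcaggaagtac
PSME4: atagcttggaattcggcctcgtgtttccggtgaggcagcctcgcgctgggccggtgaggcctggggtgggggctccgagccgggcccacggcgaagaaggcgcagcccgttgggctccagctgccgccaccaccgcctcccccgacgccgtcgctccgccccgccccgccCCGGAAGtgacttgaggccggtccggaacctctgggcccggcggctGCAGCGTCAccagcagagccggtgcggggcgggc
PSMD14: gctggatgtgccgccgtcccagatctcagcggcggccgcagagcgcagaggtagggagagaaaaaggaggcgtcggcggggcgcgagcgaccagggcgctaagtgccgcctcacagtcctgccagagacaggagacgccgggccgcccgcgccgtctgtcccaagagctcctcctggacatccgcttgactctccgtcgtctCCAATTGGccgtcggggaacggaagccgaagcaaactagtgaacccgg

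The capitals in PSME2 are a TGACNNNGC match, whose letters are the core of the antioxidant response element bound by the NFE2L factors, and, on the reverse strand, the core letters of an interferon-stimulated response element (TTTC, any 2 bases, TTTC). PSMB10 has the latter, close to its start. PSME4 has CCGGAAG, the letters of an ETS family site (FLI1 belongs to that family), and a TGACNNNGC match on the reverse strand. PSMD14 has CCAAT on both strands in an overlapping pair.

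The 2 arrays of a group correlated at 0.995 to 0.998 over all genes. FLI1 itself was at 7.30 and 7.08 on the FLI1 shRNA arrays and at 8.63 and 8.45 on the lacZ arrays, a log2 difference of -1.35 (SE 0.09, limma adjusted p = 5.39e-06), so the knock-down arrays carried their labels' pattern. Against DMSO, FLI1 was also lower at 50 nM actinomycin D (-0.95, SE 0.09, limma adjusted p = 1.68e-05) and did not pass at 5 nM (-0.08, SE 0.09). All values are log2 signals normalized together by RMA, which sets the probe signals of every array to the same distribution. They therefore show levels relative to the other genes of the array and not RNA per cell. The gene values need not share a distribution: the median over all genes was 7.43 and 7.45 on the DMSO arrays and 7.36 on both 50 nM arrays. In bulk RNA, fewer cells of a type and less RNA per cell cannot be told apart. CD99, the surface marker of Ewing sarcoma, was at 11.9 to 12.4 on all 12 arrays. Of the 7 markers of these cells measured, 6 were called lower with FLI1 shRNA, where their summed level was 68.5 to 68.8 against 74.9 to 75.1 with lacZ. At 5 nM 2 were higher and 2 lower, and at 50 nM 3 were higher and 3 lower, with sums of 71.2 at 50 nM and 73.9 to 74.1 with DMSO. PTPRC, the pan-leukocyte marker, was at 3.49 to 3.82. Over the 7 blood cell markers measured, 3 were called higher at 5 nM and 4 at 50 nM, with summed levels of 38.4 to 39.3 on the DMSO arrays, 41.0 to 41.3 at 5 nM and 40.9 to 41.4 at 50 nM. Of 6 endothelial markers 3 were called higher at each dose, and of 6 epithelial markers 1 was. Over all genes, 30.3% were called higher and 23% lower at 5 nM, and 25.8% and 23.3% at 50 nM. With FLI1 shRNA 14.6% of all genes were called higher and 9.28% lower. A call is defined with the 5 nM counts below, and the marker counts were not tested against these shares.

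Proteasome genes were mostly bright. Their mean signals exceeded the all-gene median of 7.45 in 36 of 40 genes. The exceptions were PSMA8, the testis alpha subunit, at 3.18 to 3.60, PSMB11, the catalytic subunit of the thymic cortex, at 4.76 to 5.15, PSMB8 at 5.31 to 6.02 and PSMB9 at 6.53 to 7.10. Signals of different probe sets depend on their probes, so these values do not rank the genes by RNA amount. In 20 genes the 12 arrays spanned less than 0.5 log2 units, and 9 genes (PSMA2, PSMA3, PSMA4, PSMA6, PSMA8, PSMB1, PSMB11, PSMC1 and PSMD8) were called in none of the 6 comparisons. Neither count was made over all genes. RefSeq names at least 1 pseudogene for 19 of the 40 genes, with 13 for PSMC1 and 6 for PSME2, and reads of such copies by the probes were not tested.

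**Figure D1:**
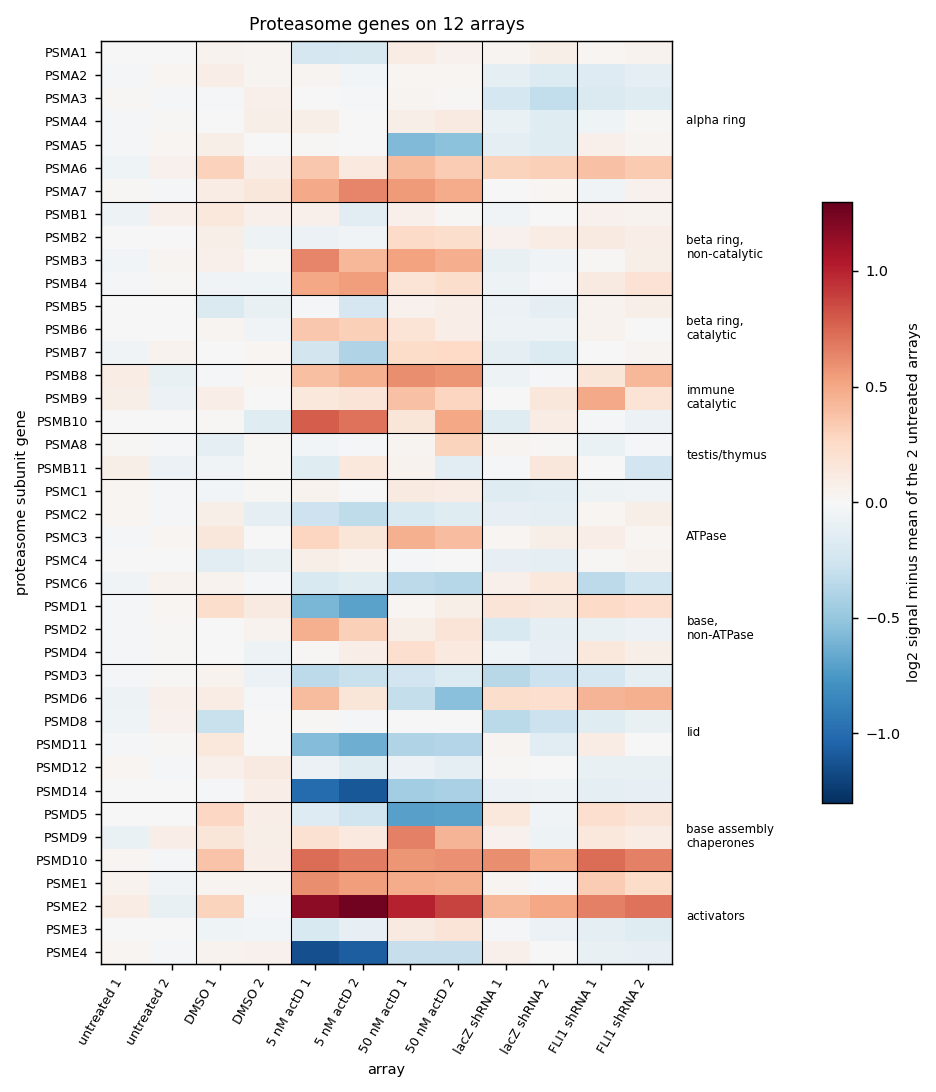
Log2 signal of the 40 proteasome genes (rows, grouped by role) on the 12 arrays (columns), each minus the mean of the 2 untreated arrays, with red above and blue below. PSME2 is darkest red and PSME4 and PSMD14 darkest blue on the 5 nM arrays, while most alpha ring genes stay pale.

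At 5 nM actinomycin D, 11 proteasome genes rose against DMSO, 11 fell and 18 did not pass. A gene is said to rise or fall where the limma p-value, adjusted by Benjamini-Hochberg over all 18404 genes, was under 0.05. Across all genes tested 53.3% were called, 30.3% higher and 23% lower, and 55% of the proteasome genes were, so the share called was close to the background. The median log2 change of the 40 genes was 0.02, beside 0.12 for all genes. Their changes ran from -1.16 (PSME4) to 1.07 (PSME2). By the study's thresholds, a fold over 2 with an adjusted p under 0.01, PSME4 and PSMD14 were lower and PSME2 was higher, in a background of 10.5% of all genes (2.64% higher and 7.86% lower). When arrays were centred on ribosomal protein genes, of which 41 of 58 rose at 5 nM with a median of 0.29, the split was 5 higher and 21 lower. PSMA7, PSMB6, PSMB8, PSMC4, PSMD2 and PSMD10 lost their calls under that centring, and PSMC4 changed sign, from 0.18 to -0.09.

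At 50 nM, 16 proteasome genes rose against the same DMSO arrays, 9 fell and 15 did not pass. The background was 49% called, 25.8% higher and 23.3% lower, and the median was 0.13, beside 0.10 for all genes. The range was -0.88 (PSMD5) to 0.81 (PSME2), and no proteasome gene passed the study's thresholds by limma, beside 5.98% of all genes. An unadjusted p under 0.05 was found for 26 of the 40 and for 56.2% of all genes. The count of rises was 9 without 50 nM array 2 or without DMSO array 2, and it was 7 under ribosomal protein centring, where PSMB2, PSMB4, PSMB5, PSMB7, PSMB9, PSMB10, PSMD4, PSMD10 and PSME3 lost their calls. Because the 2 doses share their DMSO arrays, their values are set side by side here and their likeness was not tested. Both comparisons called 8 genes higher (PSMA7, PSMB3, PSMB4, PSMB8, PSMB10, PSMD10, PSME1 and PSME2) and 7 lower (PSMC6, PSMD3, PSMD5, PSMD11, PSMD12, PSMD14 and PSME4). The share of all genes called alike at both doses was not counted, so these counts are not read. PSMB7 was lower at 5 nM and higher at 50 nM.

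The direct comparison of the doses needs no DMSO array. At 50 nM against 5 nM, 9 proteasome genes were higher, 7 lower and 24 did not pass, in a background of 44.7% (21.6% higher and 23.1% lower). The higher genes were PSMA1, PSMB2, PSMB7, PSMC3, PSMD1, PSMD9, PSMD14, PSME3 and PSME4, and the lower genes PSMA5, PSMB4, PSMB6, PSMB10, PSMD2, PSMD5 and PSMD6. The comparison shares its 5 nM arrays with that of 5 nM against DMSO, so a gene whose 5 nM arrays lie low is placed lower in the one and higher in the other, and the overlap of the calls is not read. Centring on ribosomal protein genes turned the split to 20 higher and 3 lower, and PSMB4, PSMB6, PSMB10 and PSMD2 then lost their calls. Without 5 nM array 1 the count of lower genes was 4.

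At 5 nM the caps of the core held the largest changes of both signs. PSME2 and PSME1 encode the subunits of the interferon-inducible activator ring. PSME2 was at 9.65 and 9.35 on the DMSO arrays, at 10.53 and 10.62 at 5 nM and at 10.37 and 10.25 at 50 nM. All 4 treated arrays lay above both DMSO arrays. The log2 change was 1.07 (SE 0.11, limma adjusted p = 9.36e-06) at 5 nM and 0.81 (SE 0.11, limma adjusted p = 1.36e-04) at 50 nM. PSME1 was at 10.27 and 10.27 with DMSO, at 10.84 and 10.78 at 5 nM and at 10.72 and 10.70 at 50 nM, so it rose by 0.54 and 0.44 (SE 0.07 each). The doses did not differ by the test in PSME2 (-0.27, 95% interval -0.50 to -0.03, adjusted p = 0.069) or PSME1 (-0.10, -0.26 to 0.05).

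PSME4 encodes a large activator found in the nucleus. It was at 10.80 and 10.82 with DMSO, at 9.62 and 9.68 at 5 nM and at 10.46 and 10.46 at 50 nM. The 3 groups did not overlap, and the 50 nM arrays lay between the other two. At 5 nM the signal was 44.9% of the DMSO level (log2 change -1.16, SE 0.07, limma adjusted p = 1.27e-07), and at 50 nM 78.5% (-0.35, SE 0.07). The 50 nM arrays exceeded the 5 nM arrays by 0.81 (SE 0.07, limma adjusted p = 1.72e-06). PSME3, the activator of the nucleus that forms a ring of its own, was at 11.23 and 11.25 with DMSO and 11.08 and 11.18 at 5 nM, which did not pass, and rose at 50 nM to 11.40 and 11.46, a change of 0.19 (SE 0.07).

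The interferon-inducible catalytic subunits were called higher or did not pass, and none fell: 2 of 3 rose at 5 nM and 3 of 3 at 50 nM, beside 30.3% and 25.8% of all genes. PSMB10, which can replace PSMB7, was at 7.38 and 7.21 with DMSO and at 8.15 and 8.08 at 5 nM (log2 change 0.82, SE 0.12, limma adjusted p = 1.74e-04). At 50 nM its arrays were 7.53 and 7.88, a change of 0.41 (SE 0.12) whose call was lost without 50 nM array 2 (0.23, adjusted p = 0.149) or DMSO array 2 (0.32, adjusted p = 0.112). PSMB8, which can replace PSMB5, was at 5.40 and 5.44 with DMSO, 5.80 and 5.88 at 5 nM and 6.02 and 5.98 at 50 nM. Its rise was 0.42 and 0.58 (SE 0.10 each), and no array overlapped DMSO. PSMB9, which can replace PSMB6, was at 6.69 and 6.61 with DMSO, 6.74 and 6.77 at 5 nM (not passed) and 6.99 and 6.89 at 50 nM (0.29, SE 0.11). The summed blood cell markers given above were also higher at both doses, in what is a cultured cell line. Among them CD68 was at 8.99 and 9.09 with DMSO, 9.84 and 9.81 at 5 nM and 9.82 and 9.86 at 50 nM. PTPRC was at 3.62 and 3.72 with DMSO, 3.72 and 3.82 at 5 nM and 3.67 and 3.68 at 50 nM. Any relation of these markers to the rises was not tested.

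The standard catalytic subunits moved separately. PSMB6, the caspase-like site, was at 12.33 and 12.25 with DMSO and 12.64 and 12.61 at 5 nM (0.33, SE 0.07, limma adjusted p = 0.00186), and at 12.47 and 12.38 at 50 nM, which did not pass. PSMB7, the trypsin-like site, was at 11.91 and 11.94 with DMSO, 11.68 and 11.52 at 5 nM and 12.15 and 12.17 at 50 nM. Its groups did not overlap, with the 5 nM arrays below DMSO and the 50 nM arrays above. It fell by 0.33 (SE 0.07) at 5 nM and was 0.24 (SE 0.07) higher than DMSO at 50 nM, and the difference between the doses was 0.56 (SE 0.07, limma adjusted p = 7.55e-05). PSMB5, the chymotrypsin-like site, was at 11.16 and 11.25 with DMSO and 11.31 and 11.12 at 5 nM. At 50 nM it reached 11.40 and 11.43 (0.21, SE 0.08, limma adjusted p = 0.0462). The 50 nM calls of PSMB5 and PSMB7 were lost under ribosomal protein centring and under a second quantile normalization.

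**Figure D2:**
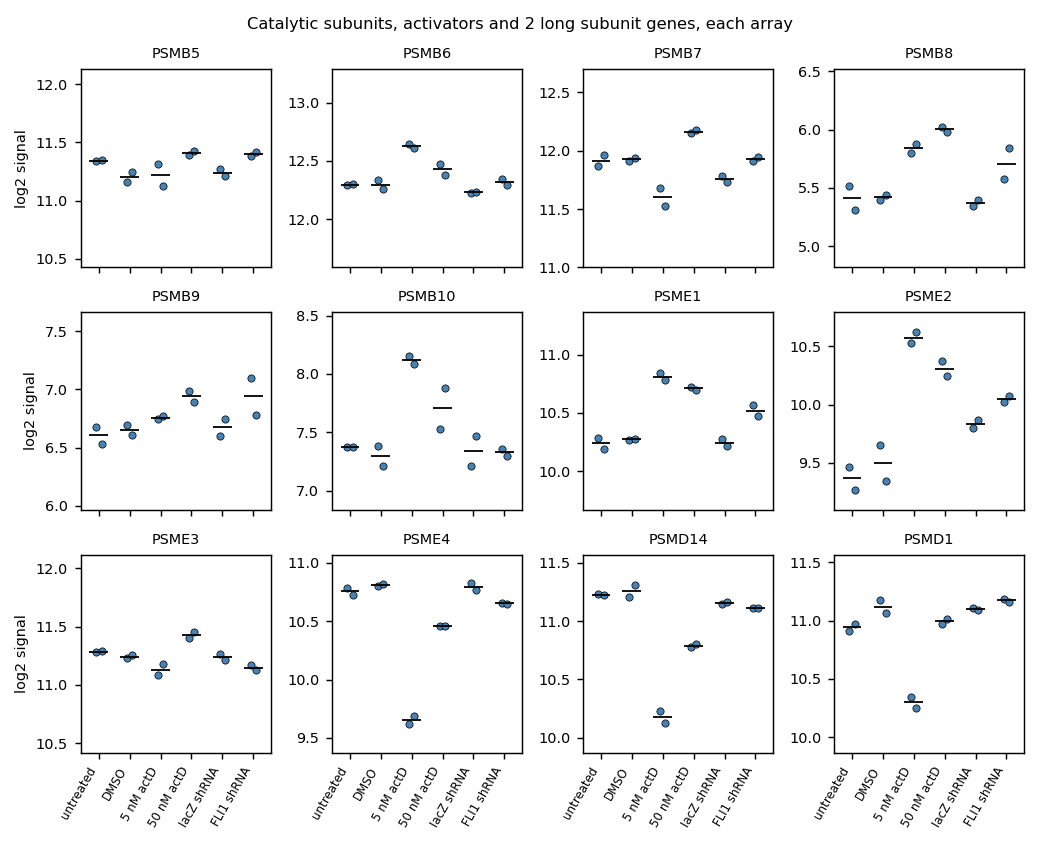
Log2 signal (vertical axis) of the 6 catalytic subunits, the 4 activators, PSMD14 and PSMD1 on each array by group (horizontal axis), with a line at each group mean of 2 arrays and an axis of the same height in every panel. PSME4, PSMD14 and PSMD1 drop at 5 nM and lie between 5 nM and DMSO at 50 nM, while PSME2, PSMB10 and PSME1 rise.

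Among the other core genes, most of the alpha ring did not pass. Of the 7 alpha ring genes, 1 rose and 1 fell at each dose, so 28.6% were called. Of all genes, 53.3% were called at 5 nM and 49% at 50 nM. PSMA7 was at 10.03 and 10.09 with DMSO, 10.43 and 10.57 at 5 nM and 10.49 and 10.42 at 50 nM, rises of 0.44 and 0.39 (SE 0.08 each). PSMA1 fell at 5 nM only, from 11.38 and 11.37 to 11.12 and 11.13 (-0.25, SE 0.06), and was 0.29 (SE 0.06) higher at 50 nM than at 5 nM. PSMA5 had the reverse order. It was at 10.36 and 10.27 with DMSO and 10.30 and 10.28 at 5 nM, and at 9.71 and 9.74 at 50 nM (-0.59, SE 0.07, limma adjusted p = 3.74e-05). Of the 4 beta ring genes without a catalytic site, 2 rose at 5 nM and 3 at 50 nM, and none fell. That is 50% and 75% higher, beside 30.3% and 25.8% of all genes. PSMB4 was at 11.41 and 11.40 with DMSO, 11.96 and 11.997 at 5 nM (0.57, SE 0.07) and 11.64 and 11.68 at 50 nM (0.26, SE 0.07). PSMB3 was at 10.73 and 10.68 with DMSO, 11.30 and 11.10 at 5 nM (0.50, SE 0.08) and 11.19 and 11.14 at 50 nM (0.46, SE 0.08). Both were above DMSO on every treated array. PSMB2 rose at 50 nM only, by 0.23 (SE 0.07).

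In the base, changes of both signs were found among the ATPases. At 5 nM PSMC4 rose (0.18, SE 0.06) and PSMC2 (-0.28, SE 0.08) and PSMC6 (-0.20, SE 0.07) fell. At 50 nM PSMC3 rose (0.36, SE 0.08) and PSMC6 fell (-0.37, SE 0.07). The other PSMC6 probe set had -0.41 and -0.48 at the 2 doses, so both probe sets had negative values. Among the base subunits without ATPase activity, PSMD1, the large scaffold subunit, was at 11.18 and 11.06 with DMSO, 10.35 and 10.25 at 5 nM and 10.97 and 11.02 at 50 nM. It fell to 56.6% of DMSO at 5 nM (-0.82, SE 0.07, limma adjusted p = 3.19e-06) and did not pass at 50 nM, 0.70 (SE 0.07) above 5 nM. PSMD2, the scaffold that binds shuttle factors, moved the other way at 5 nM, from 10.88 and 10.93 to 11.35 and 11.19 (0.36, SE 0.08). The ubiquitin receptor PSMD4 rose only at 50 nM, by 0.20 (SE 0.07).

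The lid genes taken by symbol fell or did not pass. Of these 6, 4 fell at 5 nM and 5 at 50 nM, and none rose. Their medians were -0.25 and -0.33 beside 0.12 and 0.10 for all genes, of which 23% and 23.3% fell. The 4 lid genes that fell at 5 nM span 17.2 to 103.3 kb in RefSeq, and PSMD6 and PSMD8 span 13.5 and 9.25 kb. Lid membership and gene span were not tested apart. The lid subunit gene SEM1 lies outside the symbol rule and is counted below with the associated genes. It was higher on the treated arrays: 10.53 and 10.57 with DMSO, 10.89 and 10.77 at 5 nM and 11.10 and 11.05 at 50 nM. PSMD14, the deubiquitinase that frees ubiquitin from substrates, was at 11.21 and 11.31 with DMSO, 10.23 and 10.13 at 5 nM and 10.78 and 10.80 at 50 nM. Its signal was 47.3% of DMSO at 5 nM (-1.08, SE 0.07, limma adjusted p = 3.29e-07) and 72.2% at 50 nM (-0.47, SE 0.07), with no overlap among the 3 groups. PSMD11, a lid subunit that touches the alpha ring, was at 11.42 and 11.29 with DMSO, 10.72 and 10.65 at 5 nM (-0.67, SE 0.08) and 10.89 and 10.91 at 50 nM (-0.46, SE 0.08). PSMD3 (-0.30 and -0.20, SE 0.07 each) and PSMD12 (-0.21 and -0.19, SE 0.07 each) fell less. At 50 nM their calls were the weakest of the 5, and both were lost when arrays were centred on the median of all genes. PSMD6 was at 8.65 and 8.54 with DMSO, 8.97 and 8.71 at 5 nM (not passed) and 8.25 and 8.01 at 50 nM (-0.46, SE 0.10), so its 50 nM arrays were 0.71 (SE 0.10) below 5 nM. PSMD8 passed at neither dose.

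Among the 3 chaperones that help to build the base, each had its own pattern. PSMD5 was at 10.69 and 10.51 with DMSO, 10.26 and 10.17 at 5 nM (-0.39, SE 0.09) and 9.72 and 9.73 at 50 nM (-0.88, SE 0.09, limma adjusted p = 1.46e-05). It was the gene with the deepest fall at 50 nM, and it fell further there than at 5 nM, by 0.49 (SE 0.09). PSMD10, also known as the oncoprotein gankyrin, was at 11.20 and 10.92 with DMSO, 11.57 and 11.50 at 5 nM (0.47, SE 0.09) and 11.41 and 11.43 at 50 nM (0.36, SE 0.09). PSMD9 was at 8.34 and 8.26 with DMSO and 8.38 and 8.32 at 5 nM, and reached 8.84 and 8.63 at 50 nM (0.43, SE 0.09).

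FLI1 shRNA changed few proteasome genes. Against lacZ shRNA, 2 rose, 1 fell and 37 did not pass, which is 7.5% called beside 23.9% of all genes (14.6% higher and 9.28% lower). The median change was 0.10, beside -0.01 for all genes, 30 of the 40 values were above 0, and the range was -0.40 to 0.34. No proteasome gene passed the study's thresholds by limma, beside 1.8% of all genes, and 9 had an unadjusted p under 0.05, beside 34.6% of all genes. PSMC6 was at 9.53 and 9.61 on the FLI1 arrays and 9.94 and 10.01 on the lacZ arrays, a fall of 0.40 (SE 0.07, limma adjusted p = 0.00183). The other PSMC6 probe set gave -0.28. PSMC6 was also called lower at each actinomycin D dose, but its 5 nM call (limma adjusted p = 0.0356) was lost when arrays were centred on the all-gene median and under a second quantile normalization.

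The rises under FLI1 shRNA were PSMB8 and PSME1. PSMB8 was at 5.57 and 5.84 after FLI1 knock-down, above the lacZ values of 5.35 and 5.40 (0.34, SE 0.10, limma adjusted p = 0.0306). PSME1 was at 10.57 and 10.47 against 10.28 and 10.21 (0.28, SE 0.07, limma adjusted p = 0.0158). Neither pair of groups overlapped. With 1 array fewer, some of these calls were lost. The PSMB8 change was 0.20 without FLI1 array 2 (adjusted p = 0.259), 0.31 without lacZ array 1 (adjusted p = 0.119) and 0.36 without lacZ array 2 (adjusted p = 0.0894). The PSME1 change was 0.23 without FLI1 array 1 (adjusted p = 0.132) and 0.24 without lacZ array 2 (adjusted p = 0.104). Their partners did not pass: PSMB9 was at 7.10 and 6.78 against 6.60 and 6.75 (0.27, 95% interval 0.03 to 0.50), and PSME2 at 10.03 and 10.07 against 9.80 and 9.87 (0.22, -0.02 to 0.45). PSMB10 differed by -0.02 (-0.28 to 0.25). Of PSMB5, PSMB6 and PSMB7 none passed, with values of 0.16, 0.09 and 0.17. Neither PSME4 (-0.14, -0.28 to 0.01) nor PSMD14 passed. The count of rises was 8 with a trended robust variance and 7 under ribosomal protein centring.

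The control comparisons show the size of change without FLI1 loss or drug. Against untreated cells, no proteasome gene was called with DMSO by limma, and 0.00543% of all genes were. An unadjusted p under 0.05 was found for 2 of the 40 and for 7.51% of all genes. With lacZ shRNA 2 were higher and 1 lower, beside 3.08% of all genes (0.815% higher and 2.26% lower). PSMD10 was at 11.44 and 11.32 on the lacZ arrays and 10.86 and 10.81 on the untreated arrays (0.54, limma adjusted p = 0.016). PSME2 was at 9.80 and 9.87 against 9.46 and 9.27 (0.47, limma adjusted p = 0.0473), and PSMD3 at 11.01 and 11.08 against 11.35 and 11.38 (-0.32, limma adjusted p = 0.0489). All of these calls were lost when any of the 4 arrays was left out, with values of 0.48 to 0.60 for PSMD10. PSME2 stood higher on both arrays of each treated or infected group other than DMSO than on either untreated array.

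The change at 5 nM varied with the length of the gene. By RefSeq, proteasome genes span a median of 14.4 kb, from 1.85 kb (PSMB11) to 138.8 kb (PSMA1), beside 27.3 kb for the protein-coding genes measured. At 5 nM, 11 of the 20 longer genes fell and none rose, with a median of -0.20. Of the 20 shorter genes 11 rose and none fell, with a median of 0.29. At 50 nM the longer genes had 3 rises and 8 falls and the shorter genes 13 rises and 1 fall, that of PSMD6. Over all genes, whatever their span, 30.3% rose and 23% fell at 5 nM, and 25.8% and 23.3% at 50 nM. These shares were not counted for genes of like span. The Spearman correlation of span with change across the 40 genes was -0.78 at 5 nM and -0.52 at 50 nM. Over the 16898 protein-coding genes with a span, the correlation was -0.52 and -0.29, so its sign was the same. For 50 nM against 5 nM, which shares the 5 nM arrays, it was 0.57, beside 0.34 over the protein-coding genes. For FLI1 shRNA it was -0.32, beside 0.13. These are descriptions across genes, which share arrays and are not independent replicates. The 4 genes over 100 kb, PSMD14 (103.3 kb), PSME4 (106.9 kb), PSMD1 (116.0 kb) and PSMA1, all fell at 5 nM. The shortest genes that rose at 5 nM were PSMB6 (2.33 kb), PSMB10 (2.35 kb) and PSMB4 (2.37 kb). Under ribosomal protein centring, 18 of the longer genes fell and 5 of the shorter ones rose at 5 nM.

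**Figure D3:**
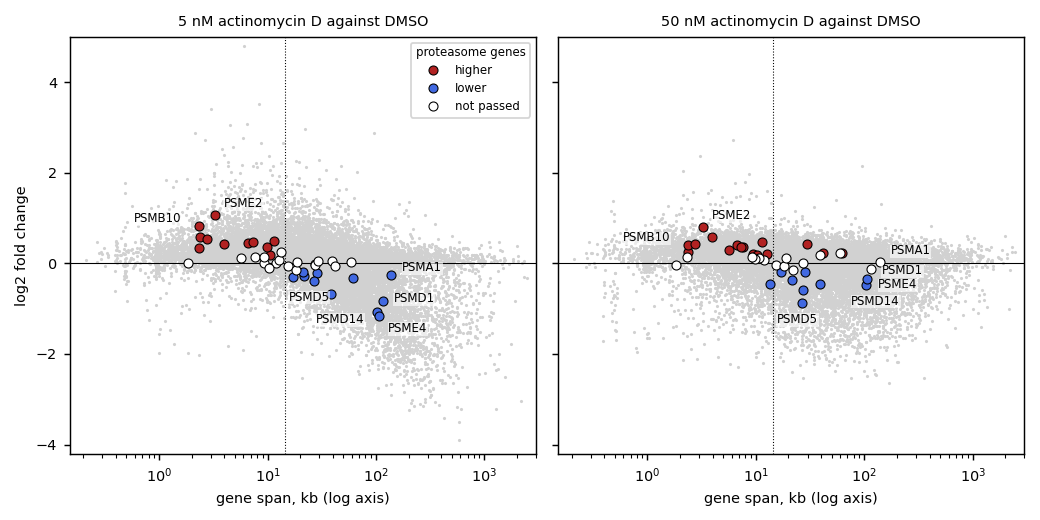
Log2 fold change (vertical axis) against the RefSeq span of the gene in kb (horizontal log axis) at 5 nM (left) and 50 nM (right), for the 16898 protein-coding genes with a span (grey) and the 40 proteasome genes (red higher, blue lower, white not passed). The dotted line is the proteasome median of 14.4 kb: at 5 nM the red points lie to its left and the blue points to its right.

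Promoter windows of 300 bases (250 before and 50 after the start) were given for 35 of the 40 genes. PSMA7, PSMB1, PSMB6, PSMB7 and PSMD4 had no window. TGACNNNGC was in 11 of 35 proteasome windows (31.4%) and in 13.6% of all 27305 windows. Of those 11 genes, 4 rose and 5 fell at 5 nM. CCGGAAG was in 10 (28.6%, beside 10.7% of all windows), and 5 of these fell at 5 nM while none rose, among them PSME4 and PSMD14. In PSMD14 the match lies after the start, outside the bases printed. GGAAGGAA, the paired GGAA letters bound by EWS-FLI1, was in none, beside 3.58% of all windows. The interferon-stimulated response element core was in 5 (14.3%, beside 3.65%), namely PSMA4, PSMB4, PSMB10, PSME1 and PSME2. At 5 nM 4 of these rose and PSMA4 did not pass. CCAAT was in 16 (45.7%, beside 35.7%) and TATAAA in 4 (11.4%, beside 12%). Both strands were searched, and a match shows only that the letters are present. The 27305 windows set beside them were not limited to the genes measured on the arrays. Over all genes, 30.3% rose and 23% fell at 5 nM, and this share was not counted by motif. The CCGGAAG genes that fell span 21.4 to 106.9 kb and are all among the longer genes. The interferon core genes that rose span 2.35 to 3.25 kb and are all among the shorter ones. Motif and span were not tested apart.

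Genes that act with the proteasome were counted from lists. Of 11 genes of MHC class I peptide loading and its regulators, 6 rose and none fell with FLI1 shRNA, 7 rose and 1 fell at 5 nM, and 5 rose and 1 fell at 50 nM. That is 54.5%, 72.7% and 54.5% called, beside 23.9%, 53.3% and 49% of all genes. TAP1, a subunit of the peptide transporter, was at 8.46 and 8.44 after FLI1 knock-down, above the lacZ values of 7.83 and 7.97 (0.55, SE 0.11, limma adjusted p = 0.0037). It was at 8.51 and 8.30 at 5 nM and 8.19 and 7.92 at 50 nM, against 7.73 and 7.63 with DMSO (0.72 and 0.37, SE 0.11 each). The drug's single fall at each dose was IRF2, a repressor and activator of interferon-regulated genes, by 2.35 at 5 nM and 1.70 at 50 nM (SE 0.07 each), and this gene rose by 1.20 with FLI1 shRNA. IRF1, an activator of PSMB8, PSMB9 and TAP1 transcription, rose by 1.62 (SE 0.18) at 5 nM and did not pass at 50 nM (0.39, SE 0.18) or with FLI1 shRNA (0.39, SE 0.18).

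Of 10 genes of transcriptional control of the proteasome, 4 rose and none fell with FLI1 shRNA, 2 rose and 3 fell at 5 nM, and 3 rose and 7 fell at 50 nM. That is 40%, 50% and 100% called, beside the same 23.9%, 53.3% and 49%, so the 5 nM share was near the background. NFE2L1, the factor that induces proteasome genes when proteasome activity is short, was at 11.27 on both FLI1 arrays and at 10.87 and 10.86 on the lacZ arrays (0.41, SE 0.06, limma adjusted p = 0.001). It had -0.02 at 5 nM, which did not pass, and fell by 0.38 (SE 0.06) at 50 nM. NFE2L2, the oxidative stress factor, rose by 0.36 with FLI1 shRNA and fell by 0.29 at 5 nM and by 1.01 at 50 nM (SE 0.08 each). NFE2L3 rose by 0.57 (SE 0.11) with FLI1 shRNA. KEAP1, which holds NFE2L2 in check, fell by 1.33 (SE 0.09) at 50 nM and had 0.14 at 5 nM.

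Of 17 genes of assembly and proteasome association, 2 fell and none rose with FLI1 shRNA. At 5 nM 6 rose and 9 fell, and at 50 nM 2 rose and 8 fell. That is 11.8%, 88.2% and 58.8% called, beside 23.9%, 53.3% and 49% of all genes. PSMG2, a chaperone of the core particle, was at 10.76 and 10.81 with DMSO, 9.96 and 9.92 at 5 nM and 9.27 and 9.15 at 50 nM (-0.85 and -1.58, SE 0.07 each). AKIRIN2, which brings proteasomes into the nucleus, rose at 5 nM (0.51) and fell at 50 nM (-1.59, SE 0.07 each). UBE3C, a ubiquitin ligase on the proteasome, and ECPAS, an adaptor of it, fell by 1.55 and 1.14 at 5 nM. Of 14 genes of ubiquitin activation and substrate delivery, 1 rose with FLI1 shRNA, 2 rose and 5 fell at 5 nM, and 1 rose and 2 fell at 50 nM. That is 7.14%, 50% and 21.4% called, so the 5 nM share was near the background and the other shares were below it. FAF1 and NPLOC4, cofactors of the segregase VCP, fell by 2.26 and 1.80 at 5 nM and by 0.57 and 0.50 at 50 nM. Of the 58 ribosomal protein genes counted for comparison, none rose and 1 fell with FLI1 shRNA, 41 rose at 5 nM and 31 at 50 nM, and none fell at either dose. Their shares called were 1.72%, 70.7% and 53.4%, beside the same background.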

How the data were processed

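RNA of A673 cells was measured on 12 Affymetrix Gene ST arrays, 2 in each of 6 groups given by the labels. The authors deposited log2 signals after background correction and RMA in the affy package (version not given in the sources used here), and these were used unchanged. Of 32321 rows, 19158 had 1 gene symbol, 1388 several and 11775 none. The platform annotation gave symbols. For the 637 genes with several probe sets the one with the highest mean was kept, which left 18404 genes. No value column lacked a sample.

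Changes were fitted in R 4.3.3 with limma 3.58.1 on all 12 arrays, with 1 mean per group, 6 residual and 4.45 prior degrees of freedom, and Benjamini-Hochberg adjustment over all genes within each comparison. The fit was tested on simulated data. With 2 arrays against 2 an exact two-sided permutation test cannot go below 0.333, so none was run. The number of arrays limits the precision.

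Members and lists were chosen with earlier results of these data known. Values per array are given for the catalytic subunits, the activators and, in each comparison, up to 6 genes with the largest rise and up to 6 with the largest fall, and up to 4 genes per list are named by size of change; other genes named were chosen after their values were seen. Spans and promoters came from RefSeq tables of GRCh38.p14. Alternatives were a replicate block, only the 4 arrays compared, dim genes left out (under the 40th percentile), the mean over probe sets, a second quantile normalization, 2 centrings, a trended robust variance and each array left out. The split by span was added after the data were seen.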

Additional observations from a re-analysis of the deposited data

How the results depend on the processing

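The called changes of proteasome genes that the naming rule took by size kept their direction under the alternatives listed. Over all called proteasome genes, the sign was checked under the 2 centrings and the second quantile normalization, and it turned for PSMC4 at 5 nM, as given above. Changes that did not pass were not followed. At 5 nM centring on ribosomal protein genes gave 5 higher and 21 lower with a median of -0.25, of which 18 falls were in the longer and 5 rises in the shorter genes. At 50 nM it gave 7 higher and a median of -0.0196, for 50 nM against 5 nM 20 higher, 3 lower and a median of 0.19, and for FLI1 shRNA 7 higher and a median of 0.16. With DMSO the median was -0.11, and with lacZ shRNA 1 was higher, 12 lower and the median -0.19. Under this centring 19.2% of the proteasome calls at 5 nM were rises, beside 50% as reported, and 23.7% of all calls, beside 56.9%. At 50 nM it was 38.9% beside 64%, and for 50 nM against 5 nM 87% beside 56.2%. The proteasome median relative to that of all genes stayed at -0.10 at 5 nM, by construction.

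Centring on the all-gene median gave 1 rise and a median of 0.0565 for FLI1 shRNA, medians of 0.0605 at 5 nM, 0.21 at 50 nM and 0.11 between doses, and 0 falls and a median of -0.0161 for lacZ shRNA. Its split at 50 nM was 21 higher and 7 lower, 75% rises. A second quantile normalization gave a median of -0.064 at 5 nM, 10 rises and a median of 0.0392 at 50 nM, and 0 falls and a median of -0.0236 for lacZ shRNA. At 50 nM PSMB2, PSMB4, PSMB5, PSMB7, PSMB9, PSMD12 and PSME3 lost their calls under it. Only the 4 arrays compared gave 1 rise for FLI1 shRNA, 7 falls at 5 nM, all 7 in the longer genes, and 0 rises and 0 falls for lacZ shRNA. With dim genes left out there were 4 rises for FLI1 shRNA and 3 falls with a median of -0.0461 for lacZ shRNA. A trended robust variance gave 8 rises for FLI1 shRNA and 5 falls for lacZ shRNA, and the mean over probe sets 0 falls for lacZ shRNA. The cause of these differences was not tested.

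With 1 array left out, FLI1 shRNA had 0 to 2 rises and a median of 0.088 to 0.104. The 5 nM comparison had 10 to 12 rises, 8 to 11 falls and a median of -0.0126 to 0.0443, with 8 to 11 falls in the longer and 10 to 12 rises in the shorter genes. The 50 nM comparison had 9 to 11 rises, 7 to 9 falls and a median of 0.0933 to 0.128, and 50 nM against 5 nM had 8 to 10 higher, 4 to 6 lower and a median of 0.0256 to 0.0819. DMSO had a median of 0.0147 to 0.0478, and lacZ shRNA 0 rises, 0 falls and a median of -0.0527 to -0.0328. The single array left in a group is then assumed to vary like the other groups.

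Whether equal replicate numbers pair the arrays cannot be settled with 2 arrays per group. Of 15 pairs of groups 6 had a correlation of deviations over 0.1, with a range of -0.45 to 0.34. Among DMSO, 5 nM, 50 nM and lacZ shRNA all correlations were positive, from 0.049 to 0.335. Those of these groups with untreated or FLI1 shRNA were all negative. The replicate block gave 1 rise and 0 falls for lacZ shRNA, 14 rises and 8 falls at 50 nM, and the reported counts of proteasome genes elsewhere.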
